A study of Saccharomyces cerevisiae with 2 samples.

Results

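The 10 genes described here encode enzymes of glycolysis in budding yeast (Saccharomyces cerevisiae): PGI1, PFK1, PFK2, FBA1, TPI1, TDH3, PGK1, GPM1, ENO2 and CDC19. They were chosen by name, as glycolytic genes known to be highly transcribed in glucose, out of 6002 nuclear protein-coding genes, and transcription itself was not measured. For each gene the cytosines from 1000 bp before the start codon to 500 bp after the stop codon were examined. All 10 genes could be measured in both libraries.

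The data are NOMe-Seq maps of chromatin accessibility, in which a cytosine methyltransferase is added to nuclei and methylates DNA that is not covered by nucleosomes or other proteins. Bisulfite sequencing then reads the share of methylated copies at each cytosine, here called the methylation level, and yeast has no DNA methylation of its own. There were 2 libraries of strain S288C: nuclei treated with CCMT (M.CviQIX, a truncated form made in the study's laboratory, which methylates the first cytosine of CC) and nuclei treated with GCMT (M.CviPI, a commercial enzyme that methylates the cytosine of GC and served as the control enzyme). In both, cells were grown in YPD, a rich glucose medium, at 30 °C, turned into spheroplasts with Zymolyase, fixed with 1% formaldehyde and permeabilized with 0.1% NP-40, as the labels give these concentrations; the volumes and detergent in the methods correspond to other concentrations. No library of untreated nuclei was used here, so the background without enzyme is not known, and with 1 library per enzyme no difference has a replicate check. The CCMT library held 900211 nuclear cytosines with a mean of 31.6 reads each, and the GCMT library held 839016 with a mean of 13.1 reads, so single values of GCMT are less precise. The mean level over nuclear cytosines was 9.71% with CCMT and 10.1% with GCMT.

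Glycolysis splits glucose into pyruvate. PGI1 (phosphoglucose isomerase), PFK1 and PFK2 (the subunits of phosphofructokinase) and FBA1 (aldolase) act on the hexose phosphates, and TPI1 (triose phosphate isomerase) interconverts their products. TDH3 (glyceraldehyde-3-phosphate dehydrogenase), PGK1 (phosphoglycerate kinase), GPM1 (phosphoglycerate mutase), ENO2 (enolase) and CDC19 (pyruvate kinase) carry out the steps that yield ATP and pyruvate. In yeast growing on glucose, these promoters are known as targets of the general regulatory factor Rap1 and of the activators Gcr1 and Gcr2, which are recruited near Rap1.

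None of the coding sequences is split by an intron. On the sacCer3 (R64) genome the upper-pathway genes lie at chrII:612236-613900 (PGI1), chrVII:970771-973734 (PFK1), chrXIII:671887-674766 (PFK2), chrXI:326408-327487 (FBA1) and chrIV:555726-556472 (TPI1), all on the minus strand. Among the genes of the later steps, TDH3 (chrVII:882812-883810) and GPM1 (chrXI:163642-164385) lie on the minus strand, and PGK1 (chrIII:137746-138996), ENO2 (chrVIII:451327-452640) and CDC19 (chrI:71786-73288) on the plus strand. The gap to the next annotated coding sequence upstream ranged from 123 bp (PGI1) and 173 bp (ENO2) to 1129 bp (PFK2) and 2260 bp (CDC19), with a median of 664 bp, against 455 bp for all genes. Only in PFK2 and CDC19 was the gap wider than the 1000 bp examined, so the upstream regions of the other genes reach into a neighbouring coding sequence. Closest to the start codon are the annotated reading frames YBR196C-A in PGI1 and YHR173C in ENO2. The upstream neighbour is divergent, on the opposite strand, in PFK2, PGK1, ENO2 and CDC19. Open DNA between such genes cannot be assigned to 1 of them here.

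Sequences around the Rap1 motif are shown first, because the open regions described next surround them in several of the genes. The motif searched was ACCCANACA, on both strands of the 1000 bp before the start codon. It was found once each upstream of 5 of the 10 genes, against 5% of all 5996 genes with a full upstream sequence. The letters are read in the direction of the gene, 5′ to 3′, with the match in capitals; in FBA1 and TDH3 the match lies on the opposite strand and the capitals are its reverse complement. The stretches lie at chrXI:327963-328011 (FBA1), chrVII:884293-884341 (TDH3), chrIII:137254-137302 (PGK1), chrXI:164751-164799 (GPM1) and chrI:71114-71162 (CDC19) of sacCer3.
FBA1: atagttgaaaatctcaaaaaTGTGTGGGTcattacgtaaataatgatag
TDH3: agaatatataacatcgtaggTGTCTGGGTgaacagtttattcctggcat
PGK1: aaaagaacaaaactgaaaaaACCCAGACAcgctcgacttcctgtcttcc
GPM1: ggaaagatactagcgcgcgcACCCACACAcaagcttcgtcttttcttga
CDC19: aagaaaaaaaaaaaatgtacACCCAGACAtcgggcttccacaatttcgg

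With both enzymes 9 of the 10 genes were clearly more methylated in the promoter region than in their own coding sequence, and the 10th, PFK1, had nearly equal levels. By the mean of cytosine levels all 10 promoters lay above the body, and with pooled reads 9 did, with PFK1 below. Promoter levels are means over the cytosines between 250 and 100 bp before the start codon, and body levels run from 100 bp after the start codon to the stop codon. Reads of a region are counted at each of its cytosines, here and below. A promoter level above the gene's own body level was the rule across the genome as well, in 88.1% of genes with CCMT and 87.9% with GCMT. The median promoter level of the 10 genes was 25.03% with CCMT, against 17.99% for all genes, and 31.5% with GCMT, against 19.3% for all genes.

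The single promoters differed widely. FBA1 had the highest promoter level with CCMT, 38.1% (8 cytosines and 163 reads, exact 95% binomial interval of the pooled reads 31.1 to 46.6%), and 34.8% with GCMT. TDH3 had 25.6% with CCMT and the highest level with GCMT, 54.9%, from only 4 cytosines and 89 reads (interval 43.0 to 64.6%). CDC19 likewise had 24.1% with CCMT and 45.4% with GCMT (6 cytosines). PFK2 differed the other way, with 33.1% (5 cytosines) for CCMT and 17.7% (6 cytosines) for GCMT. CC and GC cytosines lie at different places, so such gaps compare different bases as well as different enzymes. PGI1 (30.9% with CCMT and 34.9% with GCMT), TPI1 (22.3% with CCMT and 25.4% with GCMT), PGK1 (20.6% with CCMT and 32.6% with GCMT), GPM1 (25.1% with CCMT and 30.5% with GCMT) and ENO2 (24.95% with CCMT and 26.9% with GCMT) had levels closer to the median.

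PFK1 was the exception. Its promoter region had a mean level of 6.08% with CCMT (6 cytosines, 92 reads) and 7.78% with GCMT (4 cytosines, 54 reads), above its gene body by 0.12 percentage points with CCMT and 0.15 with GCMT. With pooled reads the promoter had 4.35% with CCMT (exact 95% interval 1.20 to 10.8%) and 5.56% with GCMT (1.16 to 15.4%), below the pooled body levels of 6.19% with CCMT and 7.63% with GCMT, which both intervals covered. Its open DNA lay farther upstream: the running mean described next reached 43.5% at −437 bp from the start codon with CCMT and 24.2% at −489 bp with GCMT, where 280 of the 600 upstream positions had too few cytosines for a value.

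The upstream profile of the glycolytic genes peaked farther from the start codon than that of the average gene. In bins of 100 bp, the mean of the 10 genes was highest from −500 to −401 bp of the start codon with CCMT, at 31.5%, against 12.2% for all genes there, and all 10 genes lay above that mean. With GCMT the highest bin ran from −400 to −301 bp, at 33.4%, against 14.7% for all genes, and the neighbouring bin from −500 to −401 bp had 32.9%, against 12.9%, with 9 of 9 measured genes above. All genes together peaked from −200 to −101 bp, at 19.8% with CCMT and 21.3% with GCMT, where the glycolytic genes had 25.9% with CCMT and 29.4% with GCMT. The cytosolic ribosomal protein genes, another highly transcribed set with many Rap1-bound promoters, peaked between these places, from −300 to −201 bp, at 27.1% with CCMT and 31.2% with GCMT. From −600 to −501 bp the glycolytic mean was still 21.8% with CCMT and 28.3% with GCMT, against 11.7% with CCMT and 12.2% with GCMT for all genes.

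**Figure D1:**
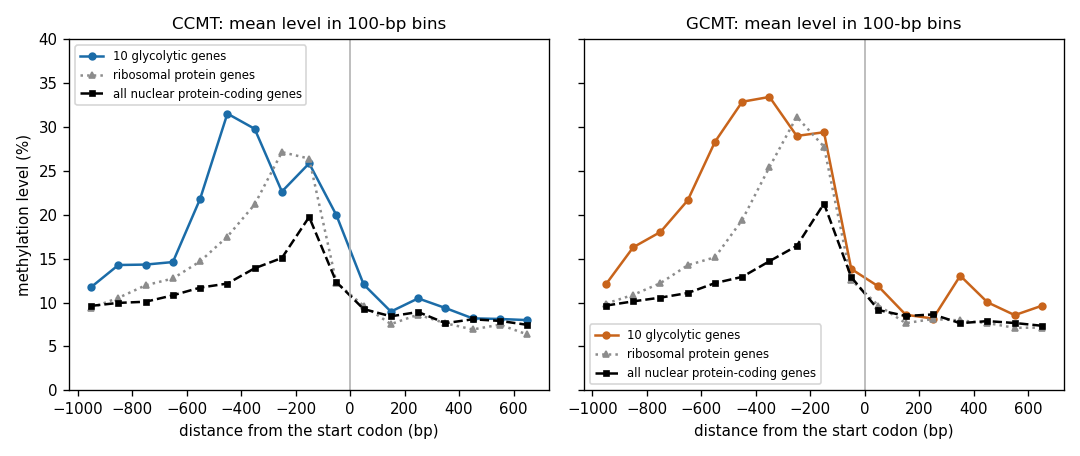
Mean methylation level (percent) in 100-bp bins by distance from the start codon, with CCMT on the left and GCMT on the right, for the 10 glycolytic genes, the ribosomal protein genes and all nuclear protein-coding genes; each point is a mean over genes. The glycolytic line is highest between −500 and −301 bp in both panels, and the line of all genes between −200 and −101 bp.

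To measure the distance and width of the open region in each gene, the mean level of the cytosines within 50 bp of each base was taken, where at least 3 were listed. The open region is the run around the highest value within 600 bp before the start codon that stays above the midpoint of that value and the gene's body level. With CCMT its median width was 221 bp in the glycolytic genes, against 117 bp for all genes, and its median farther edge lay at −467.5 bp, against −255 bp, and its nearer edge at −247.5 bp, against −124 bp. With GCMT the median width was 124 bp, against 102 bp, from −474.5 to −319 bp, against −250 and −139 bp for all genes. The width follows the smoothing: with a running mean within 25 bp and within 75 bp it was 88 and 392.5 bp in the glycolytic genes with CCMT, against 53 and 151 bp for all genes, and 64.5 and 335.5 bp with GCMT, against 51 and 151 bp. The farther edge lay beyond the median of all genes in 9 of the 10 genes with each enzyme, and the region was wider than the median in 9 with CCMT and 8 with GCMT (6 with GCMT within 25 bp).

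FBA1 had the widest region with CCMT, 411 bp from −520 to −110, and a region of 359 bp from −486 to −128 with GCMT. GPM1 (366 bp, −406 to −41), TDH3 (336 bp, −634 to −299) and PGI1 (329 bp, −451 to −123) followed with CCMT. TPI1 had similar regions with both enzymes, from −471 to −214 with CCMT and from −386 to −184 with GCMT. These 5 genes lay above the 92nd percentile of width with CCMT. PGK1 (184 bp), ENO2 (161 bp), CDC19 (159 bp), PFK2 (121 bp) and PFK1 (102 bp) had narrower regions, of which PFK1 was narrower than the typical gene.

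The places differed between enzymes in some genes. PFK2 had its highest CCMT value close to the gene, 45.8% at −147, and its highest GCMT value at −415, 55.6%. In TDH3 the GCMT maximum, 65.5% at −169, stood at the edge of a stretch without enough GC cytosines, and its region was cut to 55 bp. The GCMT maxima of PFK2 (−415), FBA1 (−486) and TPI1 (−386) also stood at an edge of their regions, so those edges may be cut as well. In PGK1 the CCMT region ran from −464 to −281 and the GCMT region from −613 to −513, so the regions did not overlap. Both lie in the gap of 872 bp between PGK1 and the divergent gene ADP1. CDC19 had the widest GCMT region, 596 bp from −902 to −307. Between 39 and 280 of the 600 upstream positions had no GCMT value, against 0 to 107 with CCMT, and such positions end a run, so the GCMT widths are the less certain ones.

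**Figure D2:**
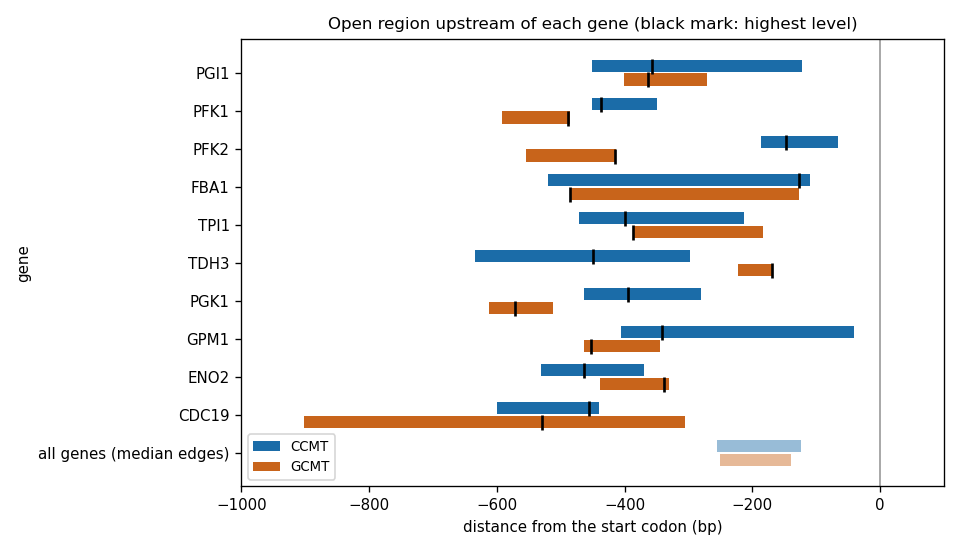
Open region of each gene in bp from the start codon, CCMT above GCMT, with a black mark at the highest value; the pale bars at the bottom run between the median edges over all genes. The bars of 9 of the 10 genes with each enzyme reach farther upstream than the pale bars.

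A count that does not depend on a single maximum gave the same order of size in both libraries. Bases of the upstream 1000 bp were counted as open where the running mean was at least 2 times the nuclear mean, which is 19.4% with CCMT and 20.2% with GCMT. The glycolytic genes had a median of 463 open bases with CCMT and 462 with GCMT, against 134 for all genes with either enzyme. The lowest of the 10 was TPI1 with CCMT (381 bases) and PFK1 with GCMT (248 bases), both above the median of all genes. The highest was CDC19, with 717 open bases for CCMT and 710 for GCMT, at the 99th percentile of genes with both enzymes. TDH3 had 571 open bases with CCMT, of which 527 formed 1 run from −634 to −108, and 535 with GCMT, all in 1 run from −703 to −169. More bases were open with CCMT than with GCMT in ENO2 (573 with CCMT and 466 with GCMT), PGI1 (386 with CCMT and 350 with GCMT), TPI1 (381 with CCMT and 354 with GCMT) and PFK1 (457 with CCMT and 248 with GCMT). The reverse held for PGK1 (512 with CCMT and 546 with GCMT), PFK2 (469 with CCMT and 562 with GCMT), FBA1 (433 with CCMT and 458 with GCMT) and GPM1 (437 with CCMT and 444 with GCMT). The ribosomal protein genes had medians of 347.5 open bases with CCMT and 329.5 with GCMT. The galactose genes (GAL1, GAL2, GAL3, GAL7, GAL10 and GAL80) had 154 with CCMT and 207.5 with GCMT.

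Open DNA was compared also with genes that have much room upstream. Among the 2674 genes with at least 500 bp to the next coding sequence upstream, a limit chosen after the values of the 10 genes had been seen, the median was 200 open bases with CCMT and 198.5 with GCMT. All 10 glycolytic genes lay above it with both enzymes, including PGI1 and ENO2, which do not have such a gap. In that set the median farther edge was −389 bp with CCMT and −378 bp with GCMT, so part of the distance was shared with other genes that have wide upstream gaps. The median width in that set was 136 bp with CCMT, against 221 bp in the glycolytic genes. With GCMT it was 113 bp, close to the 124 bp of the glycolytic genes.

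The Rap1 motif matches had lower CCMT levels than the DNA beside them. The match lay inside the CCMT open region in FBA1, TDH3 and GPM1, at its farther edge in PGK1 and beyond that edge in CDC19. With GCMT the match lay inside the open region only in GPM1 and CDC19. All 5 matches held 2 CC cytosines and no listed GC cytosine, so only CCMT gave values inside them. The 2 lie side by side, and a read across both is counted at each. The PGK1 match lies from −472 to −464. In it 0 of 56 reads, 28 at each cytosine, were methylated (exact 95% interval 0 to 6.38%). The 2 cytosines from 20 to 60 bp nearer to the gene averaged 44.1%, and the only one as far on the other side had 4.35%. In CDC19 the match from −652 to −644 had 3.45% (2 of 58 reads), against 38.3% on the far side and 21.6% on the near side. In TDH3 it had 8.33% (2 of 24 reads, −511 to −503), against 37.5% on the far side and 27.9% on the near side. FBA1 and GPM1 had higher levels in the match, 21.1% (16 of 76 reads, −504 to −496) and 20.7% (12 of 58 reads, −394 to −386), close to their far flanks of 20.5% and 20.2% and under their near flanks of 43.3% and 32.7%.

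Pooled over the 5 genes, 11.8% of 272 reads were methylated in the match (exact 95% interval 8.19 to 16.2%). In the flanks 31.96% of 970 reads were methylated (29.0 to 35.0%). These reads too are counted at each cytosine, so the intervals may be too narrow. The match was below the mean of its flanks in 5 of 5. GC cytosines lay within 10 bp of 3 of the matches, and their GCMT levels were higher than the CCMT levels of the CC cytosines there. In PGK1 they averaged 26.4% (2 cytosines), against 9.62% on the far side and 38.5% on the near side, and CC cytosines within the same distance had 0%. In CDC19 they averaged 30.6% (2 cytosines), against 38.0% on the near side, and CC cytosines 4.29%. In GPM1 they averaged 28.6% (8 cytosines), against 35.2% on the near side, and CC cytosines 20.7%. Upstream of the other genes, the motif was below its flanks at 157 of 228 places with values, with 13.8% of reads methylated in the match and 18.9% in the flanks. The interval of the glycolytic matches covered the level at the other matches, while their flanks were more methylated than the other flanks. A letter match is a description and does not show that Rap1 was bound, and the preference of CCMT for the bases next to a CC was not removed from these values.

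**Figure D3:**
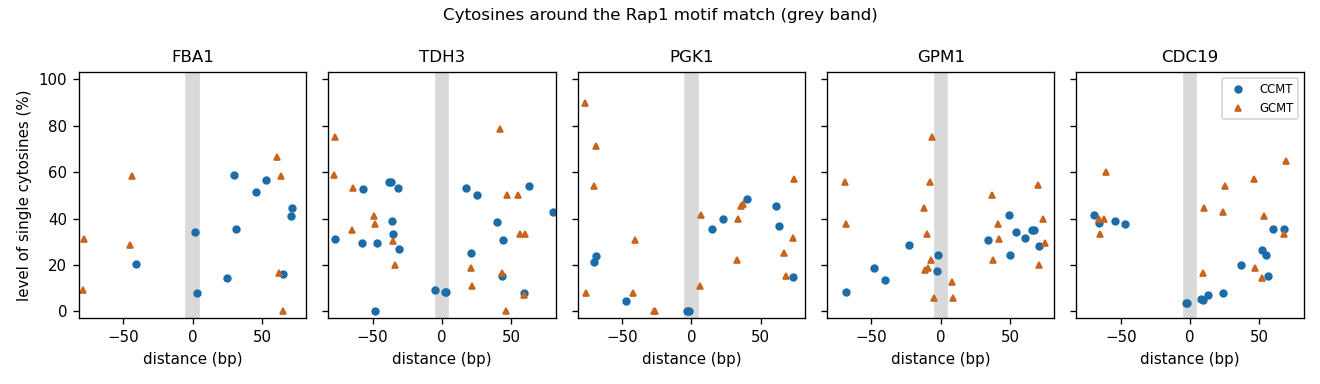
Methylation level (percent) of single cytosines within 80 bp of the centre of the Rap1 motif match (grey band), 1 panel per gene, in gene direction, with CCMT as circles and GCMT as triangles. Points in the band are CCMT cytosines, at 0% in PGK1, and many of the points on either side are higher.

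Other motifs set the glycolytic promoters apart less. CTTCC, the core that Gcr1 recognizes, was found upstream of 9 of the 10 genes, all but TDH3, but 5 letters occur often and 88.7% of all genes held it too. TATAAA was found in 8 of 10, against 77.2% of all genes, and the Abf1 motif in 6 of 10 (PFK1, PFK2, FBA1, PGK1, ENO2 and CDC19), against 24.4%. TTACCCG, the Reb1 motif, was found only in TPI1 among the 10, against 13.5% of all genes. Abf1 and Reb1 are general regulatory factors that bind many yeast promoters. At the TPI1 Reb1 match, from −398 to −392, the CCMT level was 44.6% (33 of 74 reads), above both flanks at 29.8%. Low CCMT levels were not limited to Rap1 matches. Within 10 bp of Abf1 matches they were 0% in PFK2 (2 cytosines), 6.67% in CDC19 (3 cytosines) and 7.5% in PFK1 (1 cytosine). PGK1 had 4.35% and FBA1 14.3% (1 cytosine each), and all these genes lay below both flanks. ENO2 had no listed CC cytosine there, and its GC cytosines had 34.6%, above both flanks. In FBA1 the Abf1 match lies within 20 bp of the Rap1 match, and their flanks share cytosines.

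Gene body levels were compared with the nuclear gene-body mean, which was 8.36% with CCMT and 8.24% with GCMT. With CCMT 6 of the 10 genes lay above the mean, against 34.8% of all genes, and with GCMT 7 lay above it, against 35.1%. In both libraries 6 of the 10 lay above, against 17.6% of all genes: FBA1, TPI1, TDH3, PGK1, GPM1 and CDC19. Some of these lay above by little, FBA1 by 0.08 points with GCMT and TPI1 by 0.29 with CCMT. Where only an early stretch of the body was counted, FBA1 had -2.41 points with GCMT and GPM1 had -0.23 with CCMT. Both stayed above under the other alternatives, and TPI1, TDH3, PGK1 and CDC19 stayed above under every alternative run. PGI1, PFK1 and PFK2 lay below the mean in both, but with GCMT the difference from the mean was only -0.18 points in PGI1, -0.62 in PFK1 and -0.09 in PFK2. With GCMT each of them lay above the mean under some alternatives, PGI1 under 6 of 8, PFK2 under 7 of 8 and PFK1 under 2 of 8, and the number of genes above was 8 to 10 under the alternatives. With CCMT that number was 5 or 6, and these 3 genes stayed below under every alternative run. The median of the 10 was 8.80% with CCMT, above the nuclear gene-body mean by 0.44 percentage points, but their mean was 8.24%, below it. That difference of the CCMT median ranged from 0.17 points, with reads thinned to the GCMT coverage, to 1.16 points, without 200 bp at both ends of the coding sequence. With GCMT their median of 9.77% and mean of 9.63% were both above. The nuclear mean itself lies above the median of all genes, which was 7.82% with CCMT and 7.58% with GCMT.

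TDH3 had the highest body level of the 10 in both libraries, 10.5% with CCMT (99 cytosines, 4031 reads) and 12.2% with GCMT (44 cytosines, 440 reads). That placed it at the 92nd percentile of genes with CCMT and the 95th with GCMT. With GCMT its 9 cytosines in sequence that occurs once in the genome had 8.27%, near the nuclear gene-body mean of 8.24%. The other 35 had 13.2%. After TDH3, PGK1 was highest with CCMT at 10.2%, with 9.92% for GCMT. CDC19 had 9.72% with CCMT and 10.3% with GCMT, FBA1 had 9.11% with CCMT and 8.33% with GCMT, and GPM1 had 8.96% with CCMT and 10.5% with GCMT. TPI1 had 8.65% with CCMT and 9.62% with GCMT. The low end with CCMT was held by phosphofructokinase: PFK2 had 5.42% (255 cytosines, 9799 reads), at the 3rd percentile of genes, and PFK1 5.97%, at the 6th. With GCMT these genes were closer to the mean, PFK2 at 8.15% and PFK1 at 7.62%. PGI1 had 6.68% with CCMT and 8.06% with GCMT.

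With the reads of a gene pooled, the nuclear mean over genes was 8.32% with CCMT and 8.25% with GCMT. With CCMT the exact 95% interval lay wholly above it in 4 genes (FBA1, TDH3, PGK1 and CDC19) and wholly below it in 4 (PGI1, PFK1, PFK2 and ENO2), and covered it in 2. With GCMT, where fewer reads were available, it lay above in 4 (TDH3, PGK1, GPM1 and ENO2), below in 0 and covered it in 6. Only TDH3 and PGK1 lay above by their interval with both enzymes. For TDH3 the reads in sequence shared with other genes are included. The reads of a gene are summed over its cytosines, so a read that spans several cytosines counts at each. The intervals treat these counts as independent, so they may be too narrow. They cover counting error only, and reads from 1 library may include copies of a molecule.

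**Figure D4:**
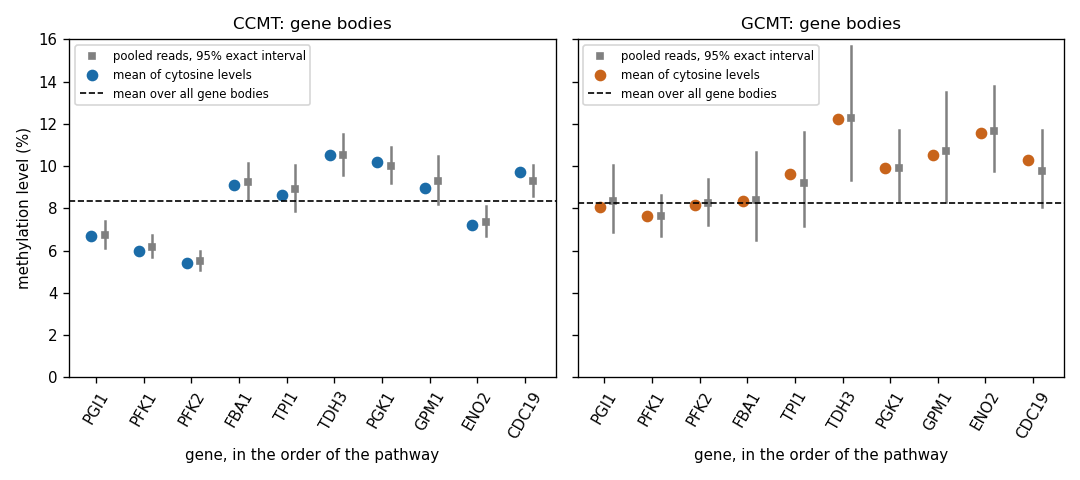
Methylation level (percent) of the gene body of the 10 genes, CCMT on the left and GCMT on the right: coloured points are means of cytosine levels, grey squares are pooled reads with exact 95% binomial intervals, and the dashed line is the mean over all gene bodies. PGI1, PFK1, PFK2 and ENO2 sit below the line with CCMT, and TDH3, with all its cytosines counted, is highest in both panels.

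ENO2 lay on opposite sides of the mean, with 7.23% for CCMT and 11.6% for GCMT. Reads of TDH3 and ENO2 are the hardest to place, because the coding sequences of TDH1 and TDH2 and of ENO1 are near copies: 68.2% of the bisulfite-converted stretches of 75 bases of TDH3 and 74.5% of those of ENO2 occur once in the genome, against 100% in the other 8 genes. The 10 CCMT cytosines of the TDH3 body covered by such unique stretches only had a level of 13.6% and the other 89 had 10.2%, while with GCMT the 9 in unique stretches had 8.27% and the other 35 had 13.2%. In ENO2 the unique cytosines had 7.68% with CCMT (40 cytosines) and 13.4% with GCMT (39 cytosines), so the gap between the enzymes was present there too. The GCMT file also listed fewer of their GC cytosines, 44 of 68 in TDH3 and 95 of 116 in ENO2, against 73 of 78 in FBA1, the lowest share among the other 8 genes. Body values of both genes are therefore uncertain.

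The openness within coding sequences was not even. With each coding sequence cut into 3 equal stretches, the first was more methylated than the last in 8 of the 10 genes with CCMT, against 51.7% of all genes, and in 7 with GCMT, against 52.5%. TPI1 had 15.2%, 9.08% and 7.09% in its first, middle and last stretch with CCMT, and 14.0%, 6.46% and 9.26% with GCMT. With CCMT the first stretch was also well above the last in CDC19 (13.3% in the first and 8.63% in the last), PGK1 (12.9% in the first and 9.45% in the last), FBA1 (12.9% in the first and 5.88% in the last) and TDH3 (12.5% in the first and 9.71% in the last). ENO2 had 15.5%, 11.6% and 7.30% in its first, middle and last stretch with GCMT. With GCMT the order was the opposite in FBA1, with 5.87% in the first stretch and 12.04% in the last, and in CDC19, with 9.35% and 11.2%. GPM1 had more methylation in the last stretch with both enzymes, and PFK1 with CCMT. The medians of the 10 genes were 10.3% in the first stretch and 6.82% in the last with CCMT, against 8.03% and 7.91% for all genes, and 9.57% and 7.81% with GCMT, against 7.84% and 7.60%.

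No base of the 10 gene bodies reached the level that counted as open upstream with CCMT. With GCMT 12.6% of the ENO2 body and 3.67% of the TDH3 body did, and FBA1 had 0.20% and PGK1 0.17%. Across all genes the median was 0% with both enzymes. Body coverage of the 10 genes was higher than usual with CCMT, from 35.7 to 43.0 reads per cytosine against a median of 32.2 over all genes, while with GCMT it ranged from 9.93 to 13.3 with a median of 10.96, against a median of 12.5 over all genes. The levels expected from the bases next to each cytosine were alike, with a median of 7.94% in the 10 genes with each enzyme and 7.90% with CCMT and 7.76% with GCMT for all genes. The observed level exceeded that expectation by a median of 0.83 points with CCMT and 1.55 with GCMT in the 10 genes, against -0.09 with CCMT and -0.18 with GCMT for all genes.

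After the stop codon the 10 genes differed less from other genes than upstream. Their median level in the 500 bp after it was 10% with CCMT and 11.6% with GCMT, against 10.4% with CCMT and 10.3% with GCMT for all genes. TPI1 was highest with both enzymes, at 14.9% with CCMT and 19.5% with GCMT, and had 78 open bases there with CCMT and 168 with GCMT. The median number of open bases after the stop codon was 0 with CCMT and 13.5 with GCMT, against 13 with CCMT and 2 with GCMT for all genes.

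The other 13 genes of glycolysis and alcoholic fermentation, which include the isozymes of several of the 10, had similar medians but a wider range. Their bodies lay above the nuclear gene-body mean in 10 of 13 with CCMT, in 11 with GCMT and in 9 with both, with medians of 9.17% with CCMT and 9.84% with GCMT. Their median of open upstream bases was 451 with CCMT and 484 with GCMT. ENO1, the other enolase gene, had 900 open upstream bases with CCMT and 961 with GCMT, and its body had a level of 13.1% with CCMT and 12.8% with GCMT. In ENO1 74.5% of the bisulfite-converted stretches of 75 bases occur once in the genome, in TDH1 80.9% and in TDH2 59.9%. Body values of these genes, which enter the counts above, are therefore uncertain too. ADH1, the main alcohol dehydrogenase of fermentation, had 713 open bases with CCMT and 484 with GCMT, and its body had 10.2% with CCMT and 9.17% with GCMT. Of the near copies of TDH3, TDH1 had 673 open bases with CCMT and 784 with GCMT, and TDH2 had 384 with CCMT and 483 with GCMT. Of the hexokinase genes, HXK1 had 947 with CCMT and 648 with GCMT, and HXK2 had 451 with CCMT and 512 with GCMT. At the low end GPM3, a minor paralog of GPM1, had 0 open bases with CCMT and 106 with GCMT, and the pyruvate decarboxylase genes PDC5 (123 with CCMT and 139 with GCMT) and PDC6 (219 with CCMT and 148 with GCMT) also lay under the lowest of the 10 genes. These 3 were named after their values had been seen. The Rap1 motif was found upstream of 4 of the 13 (HXK1, ENO1, GPM2 and ADH1). The 4 regulator genes GCR1, GCR2, RAP1 and TYE7 had lower body levels, with medians of 7.37% with CCMT and 7.78% with GCMT. With each enzyme 1 of these 4 lay above the nuclear gene-body mean.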

How the data were processed

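Formaldehyde-fixed nuclei of S288C were treated with CCMT or GCMT, 1 library each, and sequenced after bisulfite treatment. The authors mapped reads to sacCer3 with BMap; versions, filters and duplicate handling are not given in the sources used here. The supplement lists the CCMT library under another sample identifier than the labels. The authors deposited, per cytosine, a read count (coverage, not normalized) and a methylation level as a fraction from 0 to 1. Each deposited fraction times its count gave a whole number, within rounding of the file, which was taken as the methylated reads. Listed cytosines had at least 5 reads and stood in CC (CCMT) or GC (GCMT) of the R64 genome.

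Levels are unweighted means over cytosines, in percent. Gene bodies needed at least 5 cytosines and promoter regions at least 3. Total reads, counted at each nuclear cytosine they cover, were 28485123 with CCMT and 10967078 with GCMT. Intervals are exact Clopper-Pearson 95% intervals of reads summed over cytosines, and do not allow for cytosines that share a read. With 1 library per enzyme no test was made. Python 3.11.15, numpy 2.4.6, scipy 1.17.1 and matplotlib 3.10.9 were used, and the steps were tested on simulated data. All 10 genes are named, and of the pathway list HXK1, HXK2, TDH1, TDH2, ENO1 and ADH1; GPM2, GPM3, PDC5, PDC6 and the regulators are named besides. The genes, lists, motifs and measures were chosen with earlier results of these data known. Alternatives changed the coverage minimum, depth, context, body limits, running mean, thresholds and reference mean.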

Additional observations from a re-analysis of the deposited data

Results flagged for a closer look

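The body of ENO2, enolase, lay 1.13 percentage points below the nuclear gene-body mean with CCMT (a difference of -1.13) and 3.33 points above it with GCMT, so that the enzymes placed it on opposite sides. This difference was not tested, since there was 1 library per enzyme. The exact intervals of its pooled reads lay below the mean over genes with CCMT (6.69 to 8.11%) and above it with GCMT (9.77 to 13.8%). Among cytosines in unique sequence the levels were 7.68% with CCMT and 13.4% with GCMT.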

How the results depend on the processing

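No paired analysis was possible because each enzyme had 1 library. The 10 genes stayed farther upstream than the median of all genes in 8 to 10 of 10, and wider in 6 to 10 of 10, under the 8 alternatives of the open region that were run. Of the alternative values of the main measures, 65 moved by less than their tolerance (the binomial half-width for levels, 50 bp for positions, 1.5 times for counts) and 29 moved; the causes were not tested. For CCMT the median body difference of 0.44 points was 0.78 with pooled reads, 0.17 with reads thinned to the GCMT coverage, 1.16 without 200 bp at both ends, 0.89 against the mean over cytosines, 0.98 against the median over genes and 0.83 against the level expected from context. For GCMT the difference of 1.53 was 0.75 with at least 10 reads and 2.19 against the median over genes. The CCMT promoter median was 22.6% after thinning. The median farther edge was −555.5 bp with a running mean within 75 bp for CCMT. For GCMT it was −419 bp within 25 bp, −580.5 bp within 75 bp and −568.5 bp for a run above 2 times the nuclear mean. The CCMT width of 221 bp was 88 bp within 25 bp, 392.5 bp within 75 bp, 322 bp for the run above 2 times the mean, 152 bp after thinning and 293.5 bp with undefined positions bridged by interpolation, an alternative added after seeing the data. The GCMT width of 124 bp was 64.5, 335.5 and 273.5 bp under the first 3 of these. Open upstream bases were 201.5 with CCMT and 273.5 with GCMT at 3 times the nuclear mean, and 293.5 with GCMT within 25 bp. After the stop codon the CCMT median was 86 bases at 1.5 times the mean and 0.5 within 25 bp, and the GCMT median 110 at 1.5 times, 0 at 3 times and 24.5 with bridging. The count of promoters above their own body was 9 of 10 with either enzyme with pooled reads and without GCC cytosines, and with at least 10 reads 9 of 10 with GCMT and 8 of 9 with CCMT, as after thinning, where PFK2 had no value. These comparisons were added after seeing the data. PFK1 was the gene below each time: its promoter minus its body was -1.84 points with CCMT and -0.65 with GCMT with at least 10 reads, -1.40 with CCMT and -0.86 with GCMT without GCC cytosines, -1.84 with CCMT and -2.07 with GCMT with pooled reads, and -1.80 with CCMT after thinning. Some single genes changed side of the nuclear gene-body mean. GPM1 with CCMT had -0.23 points with the body from 100 to 500 bp, and FBA1 with GCMT had -2.41. PGI1 with GCMT had 0.11 with pooled reads, 3.07 from 100 to 500 bp, 0.94 without the ends, 0.31 against the mean over cytosines, 0.48 against the median and 0.29 against context. PFK1 with GCMT had 0.12 without the ends and 0.040 against the median. PFK2 with GCMT had 0.74 with at least 10 reads, 0.12 without GCC cytosines, 1.01 from 100 to 500 bp, 0.62 without the ends, 0.39 against the mean over cytosines, 0.57 against the median and 0.18 against context. The lower depth of GCMT limits what its single genes can show.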
